A study of Mus musculus with 13 samples.

Results

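Osteopontin, encoded by Spp1, and 6 integrin subunits that take part in its receptors (Itgav, Itgb1, Itgb3, Itgb5, Itga4 and Itga9) were examined in single cells of mouse colon tumors. These 7 genes were taken by symbol out of the 32285 genes of the count matrices. No cut on their measured level was used, but they were chosen with earlier results of these data known. The libraries came from 3 C57BL/6J mice, which are called A, B and C here, and comprised 10 colon tumors and 3 samples of adjacent mucosa. Mouse A was 24 weeks old and gave tumors 5 to 8 and mucosa 2, mouse B was 23 weeks old and gave tumors 9 and 10 and mucosa 3, and mouse C was 20 weeks old and gave tumors 1 to 4 and mucosa 1. All 3 animals were ApcMin/+; p16cis/cis and received the supplemented diet, so both tissues carried the same Apc mutation and the same methylation-prone p16 allele, and no mouse on a control diet was among these libraries. The 10 tumors are separate tissues but not separate animals, and p-values over tumors measure the spread between tumors. Tumors were dissociated with a tumor dissociation kit and mucosa with EDTA and TrypLE, so tissue and dissociation cannot be told apart in any comparison of the 2 tissues.

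Osteopontin is a secreted phosphoprotein of bone matrix that macrophages also release in injured and tumor tissue. Its arginine-glycine-aspartate motif is bound by integrins that contain the alpha v subunit (Itgav) paired with beta 1 (Itgb1), beta 3 (Itgb3) or beta 5 (Itgb5). A short stretch next to that motif is bound by the alpha 4 (Itga4) and alpha 9 (Itga9) subunits paired with beta 1, and for alpha 9 it becomes accessible once a protease has cut the protein. Integrins work as alpha-beta pairs, so the transcript of 1 subunit alone does not define a receptor.

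Spp1 lies on chromosome 5 at chr5:104435118-104441050, plus strand, in GRCm38, and the coding stretch that holds both integrin-binding sites is given here because the alpha subunits differ in which of the 2 sites they use. The 30 codons lie in exon 6 of 7 of the transcript Spp1-201, at chr5:104439451-104439540. Capitals mark the arginine-glycine-aspartate codons, which are codons 144 to 146 of 294.

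Spp1-201: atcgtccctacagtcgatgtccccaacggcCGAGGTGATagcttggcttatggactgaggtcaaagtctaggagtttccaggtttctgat

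The codons directly after the capitals, at 104439490 to 104439510, encode the short stretch used by alpha 4 beta 1 and alpha 9 beta 1. Of the 7 annotated Spp1 transcripts, 5 held both sites in their coding sequence. The libraries were made with 3' chemistry, so the counts do not separate these transcripts. The receptor genes lie on chromosomes 2 (Itgav, 83724397 to 83806916, and Itga4, 79255426 to 79333123), 8 (Itgb1, 128685654 to 128733200), 11 (Itgb3, 104608000 to 104670476), 16 (Itgb5, 33829665 to 33949338) and 9 (Itga9, 118606690 to 118901003), all protein coding and on the plus strand.

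The libraries held 57221300 (tumor 10) to 116133079 UMIs (mucosa 3), and 137591 barcodes gave 108495 cells after filters and doublet removal, 85953 from tumors and 22542 from mucosa. All 13 libraries carried RNA of Y-linked genes and almost no Xist, while the labels of 7 give the sex as female, so sex was not used. Pairs of libraries shared at most 0.561% of the barcodes of the smaller one. Cells were clustered without the 7 genes and the other gene lists used here, and clusters were named from marker genes ("-like"). The names were rebuilt from the counts, so class sizes are not those of the study. Tumors gave 26789 neutrophil-like, 11606 tumor epithelial-like, 9008 Ly6c+ monocyte-like, 7733 C1q+ macrophage-like, 6933 T cell-like and 4588 Arg1+ macrophage-like cells. An other epithelial class took in the epithelial clusters that no marker list named. Of its 2235 tumor cells 1049 were in a cluster led by Cxcl5, Sprr2b and Krt17 with 0 mucosa cells and 988 in one led by Onecut2, Ptn and Sox17 with 26, and in both the tumor epithelial markers scored highest of the lists. Most of its 5206 mucosa cells were in 2 clusters led by Reg3b, so the class holds different cells in the 2 tissues. Mucosa gave mainly epithelial and T cell-like cells and only 62 C1q+ and 2 Arg1+ macrophage-like cells. Levels are given as CPM, the share of a gene in all UMIs of the summed cells of a class in 1 library, times 1000000, for classes with at least 20 cells. They are compared between classes and libraries but not between genes, because 3' counts also depend on how each transcript is captured.

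In the tumors Spp1 was highest in the macrophage-like classes. In C1q+ macrophage-like cells it measured 504 CPM in the lowest tumor (tumor 7), 2311 in the median and 3781 in the highest (tumor 6), a mean of 2209 ± 1223 CPM (SD, n = 10). In Arg1+ macrophage-like cells the lowest tumor had 502 CPM (tumor 8), the median was 1097 and the highest 1968 (tumor 3), with a mean of 1286 ± 481 CPM. The 2 classes overlapped widely across tumors: C1q+ exceeded Arg1+ cells in 7 of 10 tumors by a mean of 0.61 on the log2(CPM + 1) scale, which did not separate them (exact two-sided sign-flip permutation test, p = 0.0508, adjusted p = 0.172 over 98 pairs of neighbouring classes). This difference depended on the clustering: it was larger at a finer clustering and turned in sign when the 7 genes and the other gene lists took part. At the finer clustering a cluster led by Ccl24, Arg1, C1qb and Spp1 (3474 tumor cells) was named C1q+. Its marker scores were 4.61 for C1q+ and 3.98 for Arg1+. With the lists in, a cluster with Ccl24, Arg1 and Spp1 among its leading genes (5571 tumor cells) was named Arg1+. It scored 5.09 for Arg1+ and 3.79 for C1q+. Cells with markers of both states thus take 1 name or the other. Neutrophil-like cells followed with 195 to 420 CPM (mean 295 ± 71.9), below Arg1+ cells in 10 of 10 tumors by 2.05 (adjusted p = 0.0174, the same exact permutation test). Ly6c+ monocyte-like cells held 126 to 240 CPM (mean 167 ± 34.7), and they were below neutrophil-like cells in 10 of 10 tumors by 0.81 (adjusted p = 0.0174, exact permutation test). That order is one of shares of UMIs, and neutrophil-like cells were shallower, with a median of 2603 against 6046 UMIs per cell. Cells with at least 10 Spp1 UMIs were 2.38% of neutrophil-like and 2.79% of Ly6c+ cells (means over tumors). T cell-like cells came next in the order of mean log2(CPM + 1), at 24.6 ± 8.93 CPM, lower by a further 2.78 in 10 of 10 tumors (adjusted p = 0.0174, exact permutation test). Below this point no pair of neighbours in the order differed beyond its spread. Tumor epithelial-like cells held 24.8 ± 15.4 CPM, absorptive epithelial-like cells 2.93 ± 1.91, B cell-like cells 8.31 ± 6.74 and plasma cell-like cells 1.59 ± 1.8.

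**Figure D1:**
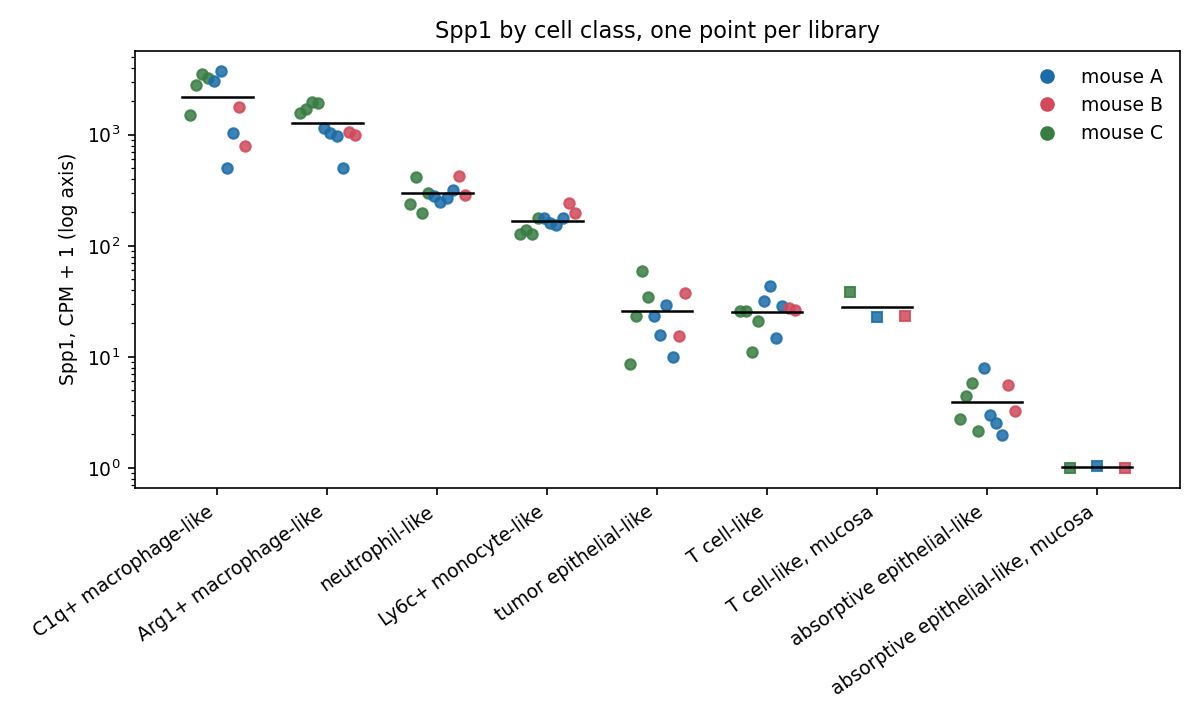
Spp1 in each library by cell class, as CPM + 1 on a log axis, coloured by mouse, with lines at the class means; circles are tumors and squares the mucosa samples of T cell-like and absorptive epithelial-like cells. C1q+ and Arg1+ macrophage-like cells lie highest and overlap, at means of 2209 and 1286 CPM, and neutrophil-like cells (295) lie above Ly6c+ monocyte-like cells (167) in all 10 tumors.

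Most of the osteopontin RNA of a tumor came from few cells. C1q+ macrophage-like cells were 8.61% of the tumor cells and held 58.0 ± 13.4% of the Spp1 UMIs (SD over 3 mice), with single tumors between 28.8% and 77.9%. These shares depend on the clustering: with the 7 genes and the other gene lists allowed to take part in it, C1q+ cells held 31.4% and Arg1+ cells 47.1%. Arg1+ macrophage-like cells, 5.51% of the cells, held 19.4 ± 6.0%, neutrophil-like cells 13.3 ± 5.76%, Ly6c+ monocyte-like cells 5.35 ± 2.91% and tumor epithelial-like cells 2.30 ± 0.142%. Within the C1q+ class the UMIs were again uneven: the richest 10% of cells held 94.9% of the Spp1 UMIs, and between 88.7% and 98.2% in single tumors. Of 7733 C1q+ cells, 1057 (13.7%) had at least 10 Spp1 UMIs, 320 had at least 100, 5269 had none, and the richest cell had 4698. The Arg1+ class was somewhat less uneven, with 85.7% in its richest 10%, 607 of 4588 cells (13.2%) at 10 UMIs or more, and a highest count of 908. In Ly6c+ monocyte-like cells 249 of 9008 cells (2.76%) reached 10 UMIs and the highest count was 133. The median cell of each of these classes had 0 Spp1 UMIs.

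**Figure D2:**
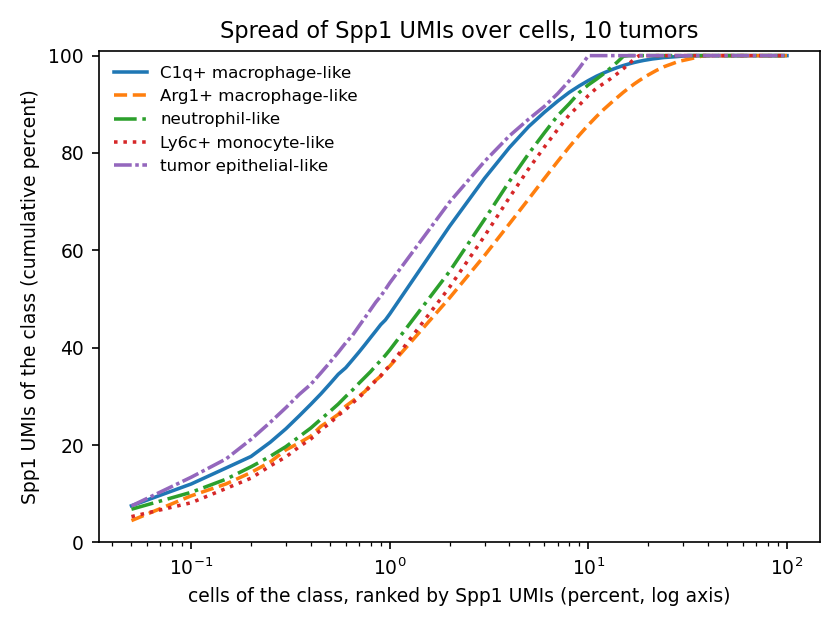
Share of the Spp1 UMIs of a class (vertical axis, percent) held by its cells ranked from the richest down (horizontal axis, percent of cells, log scale), over all 10 tumors, for 5 classes. The richest 10% of cells held 94.9% in the C1q+ and 85.7% in the Arg1+ macrophage-like class, and the tumor epithelial-like curve lies above both because fewer than 10% of its cells had any Spp1 UMI (9.98%).

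The share of cells with at least 1 Spp1 UMI depends on depth, so each cell was also thinned to 2000 UMIs. After thinning, 28.5% of 4391 Arg1+ macrophage-like cells, 24.2% of 6387 C1q+ macrophage-like cells, 13.4% of 20601 neutrophil-like cells and 11.1% of 8738 Ly6c+ monocyte-like cells still had an Spp1 UMI, against 38.0%, 31.9%, 15.1% and 17.7% before thinning. As a background, 0.84% of B cell-like and 0.61% of absorptive epithelial-like cells had an Spp1 UMI after thinning, and 1.04% and 2.77% before, at median depths of 2227 and 15763 UMIs against 7874 in C1q+ cells. Tumor epithelial-like cells, at 3.22% after thinning and 9.98% before, and the other epithelial class, at 3.47% and 11.7%, lay above those 2 classes. After thinning goblet-like (1.23%), Paneth-like (1.49%), NK or innate lymphoid-like (1.99%), T cell-like (2.22%) and dendritic-like cells (2.43%) of tumors lay between. Plasma cell-like (0.35%) and plasmacytoid dendritic-like cells (0%) lay lower. These shares pool cells over tumors and carry no spread between tumors. In mucosa 0 of 4373 goblet-like cells had an Spp1 UMI, which allows up to 0.0686% of cells with a UMI (3 counts of the total, counting error only) and sets no limit on cells that express the gene.

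Free RNA gives UMIs in droplets whose cell does not make the transcript, and UMIs from 1 such source keep their genes in 1 ratio. The free RNA of these libraries was not measured, and the whole library stands in for it here. Spp1 was set against the C1q genes (C1qa, C1qb and C1qc, which mark the C1q+ class) in each class and in the whole library. The library ratio had a median of 0.250 Spp1 UMIs per C1q UMI over the 10 tumors. In plasma cell-like cells the ratio was below that of the library in 10 of 10 tumors, and in B cell-like cells it was above it in 3 of 10 tumors and in absorptive epithelial-like cells in 6 of 10. In tumor epithelial-like cells the median ratio was 1.41 and in T cell-like cells 1.28, above the library in 10 of 10 tumors for T cell-like cells and for all epithelial cells together (median 1.29). In neutrophil-like cells it was 9.18, above the library in 10 of 10 tumors. Among tumor epithelial-like cells, 120 had at least 10 Spp1 UMIs, all 120 had Epcam, an epithelial adhesion molecule, and 10.8% had any C1q UMI, close to the 11.6% of the 10448 cells with no Spp1 UMI. At least 3 C1q UMIs were found in 1.67% of the 120 cells against 0.287% of those with no Spp1 UMI. These 120 cells were deep, with a median of 25528 UMIs against 9479, and 9.17% of them had an Arg1 UMI against 3.53%. Depth, Arg1 and the share with at least 3 C1q UMIs moved with this epithelial Spp1. The part of depth, free RNA and doublets in the Spp1 of epithelial and T cell-like cells was not tested.

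Clusters within a class differed in Spp1. The following clusters were picked after their values were seen, so the values are descriptions. Among neutrophil-like cells, a cluster led by the chemokine genes Ccl3 and Cxcl2 and by Hcar2 (2180 cells) held 377 CPM in the lowest, 980 in the median and 2320 in the highest tumor. The largest neutrophil-like cluster, led by Retnlg and S100a9 (12283 cells), held 65.2, 139 and 248 CPM, so the 2 clusters did not overlap. Within T cell-like cells, a cluster led by Il17a and the gamma delta receptor gene Trdc (321 cells in the 8 tumors with enough of them) held 34.8, 191 and 477 CPM, against 1.54, 9.07 and 19.1 CPM in the largest T cell-like cluster of tumor cells, and it was higher in 8 of 8 tumors. A shallow C1q+ cluster with a median of 927 UMIs per cell ranged from 68.1 to 6303 CPM, and left 154784 of the 156267 Spp1 UMIs of the class to the deeper cluster.

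Spp1 in C1q+ against Arg1+ macrophage-like cells gave Pearson r = 0.571 (p = 0.0819) and Spearman rho = 0.648 (p = 0.0493) over 10 tumors, the only pair of measures related here, by permutation with 100000 resamples. Without tumors 7 and 10, the farthest from the median in C1q+ cells, r was 0.644. With both measures centred on the mean of each mouse, r was 0.463 (p = 0.494) and rho 0.552 (p = 0.140, exact permutation tests of the tumors within mice). With 4, 4 and 2 tumors per mouse this neither shows the relation within animals nor its absence. In Arg1+ cells the 4 tumors of mouse C had the highest mean, 1792 CPM, against 911 in mouse A and 1022 in mouse B. Across 42 such comparisons of the 3 mice over genes and classes, 10 had p under 0.05 and 0 passed after adjustment (F statistic, exact permutation test over every arrangement of the tumors on mice, lowest adjusted p = 0.107). Mouse A also differed from C in age, so animal and age cannot be told apart.

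The alpha v subunit gene Itgav was spread over lymphoid, epithelial and myeloid classes. Its mean level in tumors was 72.5 ± 24.7 CPM in T cell-like cells, 68.8 ± 14.4 in the other epithelial class, 52.6 ± 6.87 in Arg1+ and 45.3 ± 8.46 in C1q+ macrophage-like cells, 25.5 ± 6.43 in the tumor epithelial-like class and 26.3 ± 5.04 in Ly6c+ monocyte-like cells. Of its 14 pairs of neighbouring classes, 1 differed beyond the spread: Arg1+ exceeded C1q+ macrophage-like cells by 0.23 on the log2(CPM + 1) scale in 9 of 10 tumors (adjusted p = 0.0255, exact permutation test). The largest single source of its UMIs was the tumor epithelial-like class with 20.8 ± 5.17%, followed by the other epithelial class with 16.7 ± 2.59% and C1q+ macrophage-like cells with 15.1 ± 1.99%. Single clusters stood out, again picked after their values were seen. A T cell-like cluster led by Tnfrsf4, Penk and Tnfrsf9, which also has Foxp3 among its leading genes, held 114 to 287 CPM (median 244) against 25.5 to 55.7 (median 36.9) in the largest T cell-like cluster of tumor cells. An absorptive epithelial-like cluster led by Saa1, Clca4b and Ly6m held 112 to 304 CPM in 9 tumors, against 6.88 to 25.4 in the other main absorptive cluster. An epithelial cluster led by Cxcl5, Sprr2b and Krt17 held 84.5 to 182 CPM, against 19.1 to 46.3 in the largest tumor epithelial-like cluster. In each of these 3 cases the ranges did not overlap.

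The beta subunits that pair with alpha v had different cell sources. Itgb1, the common partner of many alpha subunits, was present in most classes, with means of 319 ± 76.2 CPM (NK or innate lymphoid-like cells), 259 ± 58.1 in the other epithelial class, 191 ± 21.9 in tumor epithelial-like and 190 ± 23.7 in C1q+ macrophage-like cells. It was low in neutrophil-like cells, at 23.8 ± 7.78 CPM, except in the Ccl3 and Cxcl2 cluster, where it held 108 to 215 CPM against 8.69 to 15.2 in the largest neutrophil-like cluster. Itgb3, the subunit of the vitronectin receptor on platelets and osteoclasts, was nearly missing from macrophage-like classes, with 27 UMIs in 7733 C1q+ and 7 UMIs in 4588 Arg1+ macrophage-like cells and class means of 0.39 and 0.24 CPM. Its higher levels were in 2 lymphoid classes, at 62.6 ± 24.4 CPM in NK or innate lymphoid-like and 30.8 ± 12.3 in T cell-like cells, and in plasmacytoid dendritic-like cells at 56.1 ± 16.9. Endothelial-like cells were also high, and the 2 tumors with enough of them had 63.2 and 85.7 CPM. T cell-like cells gave 45.6% of its UMIs. Itgb5 was by contrast a macrophage and monocyte transcript, at 136 ± 15.1 CPM in C1q+, 56.1 ± 14.5 in Ly6c+ and 39.0 ± 15.3 in Arg1+ cells. Each step in that order held beyond the spread, with C1q+ above Ly6c+ by 1.30 in 10 of 10 tumors (adjusted p = 0.0174) and Ly6c+ above Arg1+ by 0.55 in 9 of 10 tumors (adjusted p = 0.0338, exact permutation tests). Absorptive epithelial-like cells followed at 16.8 ± 4.49 CPM, 1.13 below Arg1+ cells in 10 of 10 tumors (adjusted p = 0.0174, exact permutation test). C1q+ cells held 56.9% of the Itgb5 UMIs of the tumors.

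**Figure D3:**
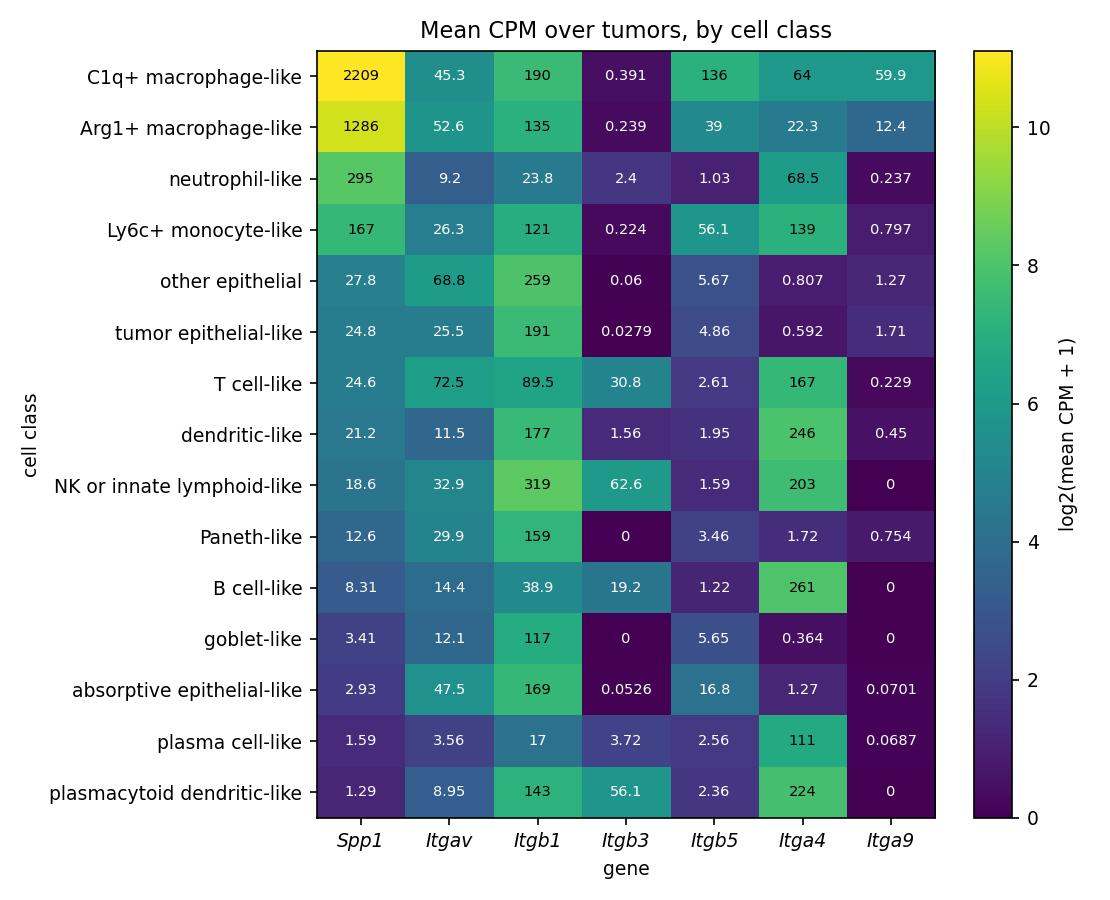
Mean level of each of the 7 genes (columns) over tumors by cell class (rows); the colour is log2 of the mean CPM + 1 and the number printed is the mean CPM. Spp1 and Itga9 are highest in the macrophage-like classes, Itgb5 in C1q+ cells (136 CPM) and Itga4 in leukocytes other than Arg1+ cells. Itgb3 is highest in NK or innate lymphoid-like and plasmacytoid dendritic-like cells, with 0.39 CPM in C1q+ cells.

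The alpha 4 and alpha 9 subunits, whose pairs with beta 1 use the second site, had different distributions over leukocytes. Itga4, part of the homing receptor for VCAM1, was highest in B cell-like (261 ± 65.7 CPM), dendritic-like (246 ± 47.9), plasmacytoid dendritic-like (224 ± 65.3) and NK or innate lymphoid-like cells (203 ± 43.6). No pair of neighbours among these differed beyond its spread. It measured 139 ± 21.5 CPM in Ly6c+ monocyte-like, 64.0 ± 11.3 in C1q+ and 22.3 ± 4.14 in Arg1+ macrophage-like cells, with C1q+ above Arg1+ by 1.48 in 10 of 10 tumors (adjusted p = 0.0174, exact permutation test). Paneth-like cells had 1.72 CPM, and absorptive epithelial-like cells 1.27, the most of the other epithelial classes in the order. A dendritic-like cluster led by Ccl22, Ccr7 and Fscn1, picked after its values were seen, held 404 to 718 CPM, above the 102 to 181 CPM of the largest dendritic-like cluster. Itga9 was concentrated in 1 class: C1q+ macrophage-like cells had 30.6 to 78.8 CPM (mean 59.9 ± 14.5) and gave 82.9% of its tumor UMIs, while Arg1+ cells had 3.74 to 19.9 (mean 12.4 ± 5.63). The 2 ranges did not overlap, and C1q+ exceeded Arg1+ by 2.28 in 10 of 10 tumors (adjusted p = 0.0174, exact permutation test). Ly6c+ monocyte-like cells had 0.80 ± 0.618 CPM and tumor epithelial-like cells 1.71 ± 1.51.

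Macrophage states were then compared with edgeR on UMIs summed per tumor and class, with 10868 genes tested in 10 tumors. These classes were drawn on the same cells, although without the 7 genes, and most of the transcriptome differed between them: 77.6% of genes passed an adjusted p of 0.05 between C1q+ and Arg1+ cells, 77.0% between C1q+ and Ly6c+ cells and 56.0% between Arg1+ and Ly6c+ cells. Itgb3 was too low to test, and the other 6 gave 4, 6 and 6 calls, counts to be read against those shares. Split by direction, 41.2% of genes were higher and 36.3% lower in C1q+ than in Arg1+ cells (3 and 1 of the 6), 40.5% and 36.5% in C1q+ than in Ly6c+ cells (5 and 1), and 27.0% and 29.0% in Arg1+ than in Ly6c+ cells (4 and 2). Scaling mattered: with total UMIs in place of TMM the median log2 fold change of all genes moved from 0.07 to 0.60 for C1q+ minus Arg1+, from 0.05 to 0.35 for C1q+ minus Ly6c+ and from -0.02 to -0.24 for Arg1+ minus Ly6c+. The split of higher against lower calls moved with it, from 4479 and 3950 to 7223 and 1867, from 4400 and 3967 to 6206 and 2352, and from 2939 and 3151 to 1798 and 4945. Changes are therefore relative to the bulk of genes.

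Against Ly6c+ monocyte-like cells both macrophage states were higher in Spp1, Itga9, Itgav and Itgb1 and lower in Itga4, under both scalings. Spp1 was higher by 3.22 ± 0.25 (log2 fold change ± SE) in C1q+ and by 3.06 ± 0.25 in Arg1+ cells, with adjusted p of 2.36e-12 and 1.32e-11 by edgeR. Itga9 was higher by 5.97 ± 0.23 and 4.21 ± 0.31. Itga4 was lower by 1.42 ± 0.06 and 2.39 ± 0.08 (log2 fold changes of -1.42 and -2.39). Itgav rose by 0.49 ± 0.08 in C1q+ and by 1.24 ± 0.08 in Arg1+ cells, and Itgb1 by 0.36 ± 0.05 and 0.40 ± 0.06. On CPM of total UMIs Itgb1 was higher in Arg1+ than in Ly6c+ cells by only 0.17 on the log2(CPM + 1) scale. That held in 8 of 10 tumors and did not separate them (adjusted p = 0.172, exact permutation test). Itgb5 went both ways, higher by 1.02 ± 0.10 in C1q+ cells and lower in Arg1+ cells (-0.32 ± 0.12, edgeR adjusted p = 0.0205). That last call was lost without tumor 1 (adjusted p = 0.0522) or without tumor 9 (adjusted p = 0.0832), and at the finer clustering (adjusted p = 0.0945). The value turned to 0.20 when the 7 genes and the other gene lists were allowed to take part in clustering.

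Between the 2 macrophage states, C1q+ cells were higher than Arg1+ cells in Itga9 by 1.76 ± 0.16, in Itgb5 by 1.34 ± 0.11 and in Itga4 by 0.97 ± 0.08, and lower in Itgav (-0.75 ± 0.08, edgeR adjusted p = 1.25e-09). On CPM of total UMIs the difference in Itgav was smaller, with Arg1+ above C1q+ cells by 0.23 on the log2(CPM + 1) scale in 9 of 10 tumors. Spp1 did not pass (0.15 ± 0.23, edgeR adjusted p = 0.541), and with total UMIs it did (0.68, adjusted p = 0.00877). Itgb1 turned from -0.03 ± 0.06 (adjusted p = 0.589) to 0.49 with total UMIs, where it was called. The comparison of Spp1 between these states also depended on the clustering: when the 7 genes and the other gene lists took part in it the log2 fold change turned to -1.90.

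**Figure D4:**
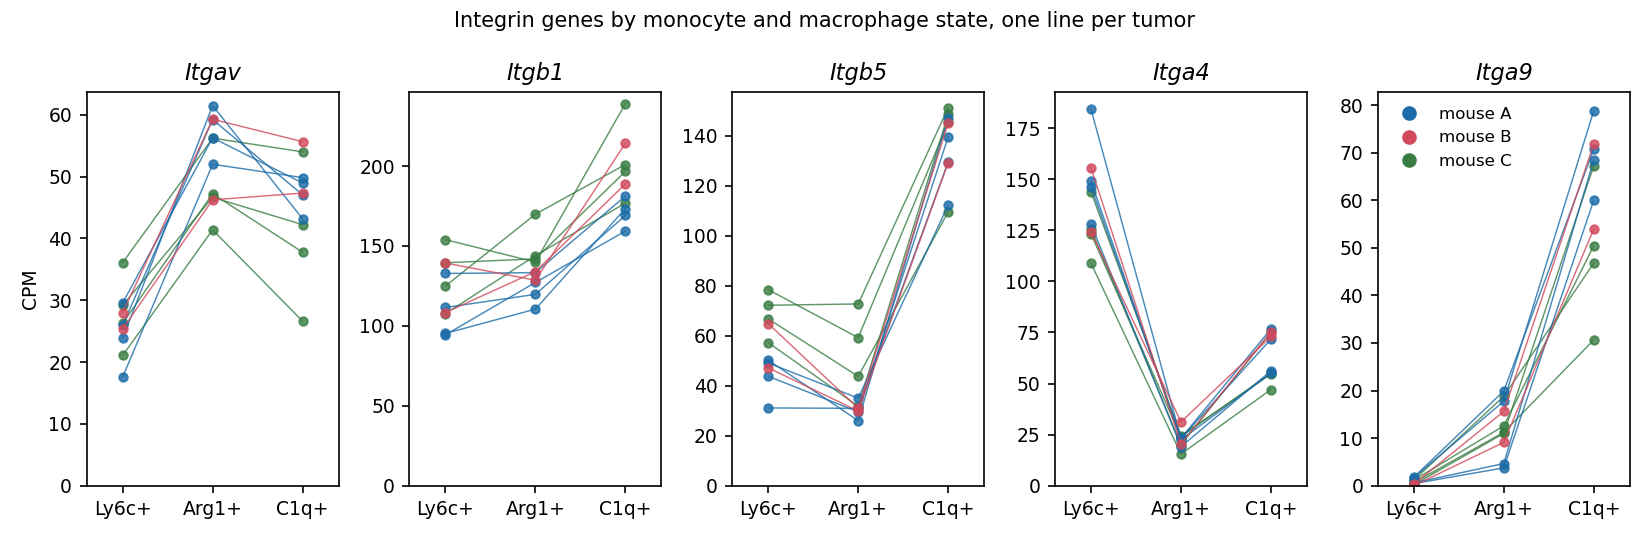
Level in CPM of 5 integrin genes (1 panel each) in Ly6c+ monocyte-like, Arg1+ macrophage-like and C1q+ macrophage-like cells, with a point and a line for each tumor, coloured by mouse. Itga9 and Itgb5 are highest in C1q+ cells (means 59.9 and 136 CPM), and Itga4 is highest in Ly6c+ (139 CPM) and lowest in Arg1+ cells (22.3 CPM).

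Inside the C1q+ class, the 1057 cells with at least 10 Spp1 UMIs were set beside the 5269 cells with none, per tumor. The limit of 10 was chosen after the values were seen and the groups are 2 ends of 1 range with the remaining cells between them, so no p is given. Spp1-rich cells had more Itgb1 (219 ± 28.1 against 181 ± 22.5 CPM, higher in 10 of 10 tumors) and less of both alpha subunits of the second site: Itga9 measured 32.4 ± 6.13 against 74.2 ± 16 CPM and Itga4 38.7 ± 13.7 against 78.2 ± 10.0, each lower in 10 of 10 tumors. Itgb5 was 119 ± 21.4 against 144 ± 17.2 CPM, lower in 9 of 10 tumors, and Itgav 43.6 ± 8.75 against 46.1 ± 8.25, higher in 3 of 10. The rich cells also had more Gpnmb (466 against 14.7 CPM), Fn1 (1150 against 199), Mmp12 (1379 against 296), Arg1 (2256 against 656) and Trem2 (663 against 394) in 10 of 10 tumors, and less of the mannose receptor gene Mrc1 (86.2 against 252). Lyz2 (24771 against 12060 CPM) and Ccl24 (392 against 79.3) were also higher in 10 of 10 tumors, while the class markers C1qc (2371 against 3156, lower in 10 of 10 tumors), C1qa (4081 against 5253) and Apoe (26182 against 36075) were lower. These genes were also picked with results known. Rich cells were deeper, with a median of 13985 UMIs against 7218, and the part of depth was not tested; limits of 5 and 30 UMIs gave the same directions for Itgb1, Itga4, Itga9 and Itgb5.

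Tumors were next compared with the adjacent mucosa. In sums over all cells, 70.1% of the 17448 genes tested passed an adjusted p of 0.05 (36.3% higher and 33.9% lower), and 6 of the 7 genes were among them, all higher in tumors. In sums of this kind a change in the mix of cell types and a change of RNA per cell cannot be told apart. Spp1 measured 3.77, 0.66 and 1.18 CPM in mucosa 1, 2 and 3, and 128 CPM in the lowest, 359 in the median and 512 in the highest tumor (log2 fold change 7.59 ± 0.77, edgeR adjusted p = 1.27e-06). Mucosa levels of Itgav were 9.42, 9.21 and 11.5 CPM in mucosa 1, 2 and 3, and in tumors 23.6 at the lowest, 29.0 in the median and 38.7 at the highest (log2 fold change 1.59 ± 0.16). Itga9 was 0.15, 0.12 and 0.25 CPM against 3.66, 8.13 and 10.5 (5.38 ± 0.43), Itgb5 4.84, 4.99 and 5.07 against 18.0, 23.4 and 30.2 (2.29 ± 0.17), and Itga4 18.2, 10.3 and 14 against 48.9, 62.1 and 70.4 (2.11 ± 0.17). Itgb3 was 0.59, 0.19 and 0.55 CPM against 1.57, 2.72 and 4.29 (2.69 ± 0.39). For these 5 genes and Spp1 the tumors and the mucosa samples did not overlap. How many of all genes lay without overlap was not counted, here or in the comparisons below, so this is not shown to be particular to these genes. Itgb1 overlapped, at 106 to 124 CPM in mucosa and 108 to 165 in tumors, and did not pass (0.29 ± 0.14, edgeR adjusted p = 0.0737). With the mouse as a block it passed (adjusted p = 0.0392), as it did with DESeq2 (adjusted p = 0.0427), at a 10% mitochondrial limit (0.0358), and without tumor 6 (0.0424) or tumor 7 (0.0448).

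**Figure D5:**
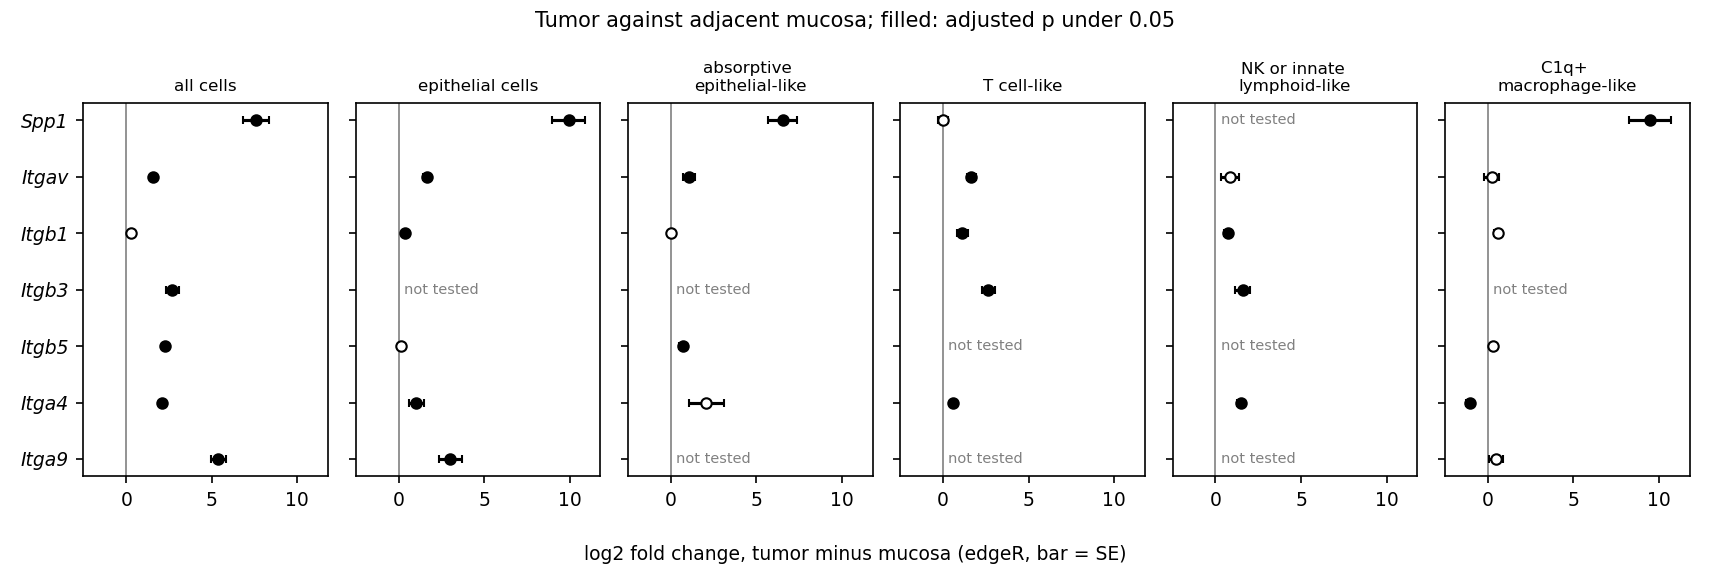
Log2 fold change of tumor against mucosa with its SE (edgeR) for the genes tested, in sums over all cells, epithelial cells and single classes. Filled points passed an adjusted p of 0.05. Itgav runs from 0.23 in C1q+ macrophage-like cells, below the median of 0.30 of all genes there, to 1.64 in epithelial and T cell-like cells. It did not pass in C1q+ or in NK or innate lymphoid-like cells. The Spp1 points of epithelial, absorptive and C1q+ cells rest on at most 3 mucosa UMIs, so they are fitted values and no bounds.

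In epithelial cells, 64.0% of 15454 genes passed (33.7% higher and 30.3% lower), and 5 of the 6 genes tested did, all higher in tumors. The 5 include Spp1, which had 3 UMIs in mucosa epithelium. It passed the filter on low counts through the tumors, so its direction was fixed beforehand. The tumor epithelial-like class was almost absent from mucosa, with 26 cells, so the epithelial sums compare different mixes of epithelial classes. With total UMIs the median of all genes moved from 0.04 to 0.30 and the higher and lower calls from 5206 and 4680 to 6975 and 3078. Itgav held 25.8, 35.2 and 47.8 CPM in the lowest, median and highest tumor against 8.41, 8.97 and 10.8 CPM in mucosa, without overlap (1.64 ± 0.19, edgeR adjusted p = 1.02e-05). Itgb1, its partner, held 163, 191 and 227 CPM against 135, 124 and 113 (0.39 ± 0.13, adjusted p = 0.0218 by edgeR), a call lost without mucosa 2 (adjusted p = 0.0633) or mucosa 3 (adjusted p = 0.103). Itgb5 held 5.21, 6.85 and 10.8 CPM against 5.37, 5.11 and 5.06, overlapping, and did not pass (0.17 ± 0.21). Itga9 was low but higher in tumors, at 0.25 to 3.74 CPM against 0.12, 0.09 and 0.17 (3.03 ± 0.69). Itga4 did not exceed 1.41 CPM in any library, and its call (1.03 ± 0.43, adjusted p = 0.0492 by edgeR) was lost when any 1 of 9 libraries was left out (mucosa 1 or 3, or any of tumors 4 to 10; adjusted p 0.0513 to 0.197). It was also lost with no filter on low counts (adjusted p = 0.0738), with the tumors summed per mouse (0.0912) and with doublets kept (0.57, adjusted p = 0.0772). Spp1 held 7.12 to 46.0 CPM in tumor epithelium. Mucosa epithelium had 0, 3 and 0 UMIs, which gives a ratio of pooled levels of 1527 with a counting interval of 522 to 7405. Itgb3 had 17 UMIs in tumor and 2 in mucosa epithelium, a ratio of 6.42 (1.52 to 57.3). Counting intervals and limits of this kind, here and below, pool UMIs over libraries and leave out the spread between libraries and cells. The part of free RNA in these ratios was not tested.

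Within T cell-like cells 41.0% of 10422 genes passed (20.6% higher and 20.4% lower), and 4 of 5 tested genes of the set did, all receptor subunits and all higher in tumors. The class held different clusters in the 2 tissues: 3931 of its 4659 mucosa cells but 460 of its 6933 tumor cells were in the cluster led by Gzma, Ccl5 and Cd7, and 4965 tumor but 576 mucosa cells were in the largest cluster of tumor cells. With total UMIs the median moved from -0.01 to -0.19, and the higher and lower calls from 2144 and 2131 to 1505 and 3198. Itgav held 40.2, 71.1 and 108 CPM in the lowest, median and highest tumor against 20.8, 22 and 34.1 CPM in mucosa 1, 2 and 3 (1.64 ± 0.27, edgeR adjusted p = 7.76e-05). Itgb3 held 12.7, 27.9 and 49.1 CPM against 3.31, 4.60 and 8.45 (2.64 ± 0.38, edgeR adjusted p = 2.12e-05). Neither gene overlapped between the tissues. Itgb1 held 50.7 to 163 CPM against 45.5, 60.8 and 35.2 (1.13 ± 0.30), and Itga4 122 to 259 against 107, 133 and 143 (0.56 ± 0.16, adjusted p = 0.00911 by edgeR, and 0.0988 with total UMIs). Spp1 was the exception among the genes tested here, at 10.1 to 42.3 CPM in tumors and 37.5, 22 and 22.2 CPM in mucosa (-0.02 ± 0.27, edgeR adjusted p = 0.972). In the largest T cell-like cluster of tumor cells taken alone, mucosa had 0 Spp1 UMIs in all 3 libraries and tumors 1.54 to 19.1 CPM (a fitted log2 fold change of 6.87 that is no bound). Spp1 passed the filter on low counts there through the tumors, so its direction was fixed beforehand and no p is given. After thinning 1.13% of these tumor cells had an Spp1 UMI, near the 0.84% of the B cell-like background, and the part of free RNA in this difference was not tested. In the same cluster Itgav (1.69) and Itgb3 (1.56) passed by edgeR, while Itgb1 (adjusted p = 0.0798) and Itga4 (adjusted p = 0.583) did not. In the Gzma cluster alone Itgav (0.98) and Itga4 (0.62) passed by edgeR and Itgb1 did not (0.50, adjusted p = 0.146). T cell-like cells were also the main holders of the little Spp1 that mucosa had: they gave 326 of its 426 UMIs, while forming 4659 of 22542 cells.

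In absorptive epithelial-like cells 41.6% of 11662 genes passed (22.1% higher and 19.5% lower), and 3 of 5 genes of the set, all higher in tumors. These were Itgav, Itgb5 and Spp1. With 1 mucosa UMI, Spp1 passed the filter on low counts through the tumors, so its direction was fixed beforehand. Here too the clusters differed: 1656 and 716 of the 2423 tumor cells were in clusters that held 583 and 433 of the 5247 mucosa cells, while 3 clusters with 1792, 1320 and 1119 mucosa cells held 40, 11 and 0 tumor cells. Itgav ranged from 6.88 to 25.4 CPM in the first of these tumor clusters and from 112 to 304 in the second, against 1.98, 5.70 and 8.44 CPM in mucosa 1, 2 and 3 in the first. The whole class held 27.6, 14.4 and 18.0 CPM in mucosa, so other mucosa clusters of the class held more than the first. No test within single absorptive clusters was made, so the test over the class also carries its cluster make-up. Spp1 had 140 UMIs against 1 (ratio 197, counting interval 34.8 to 7842), but this class was used above as a background for Spp1, with a ratio to the C1q genes above the library in 6 of 10 tumors, and the part of free RNA in its Spp1 was not tested. Itgav held 28.6 to 90.9 CPM against 27.6, 14.4 and 18.0 (1.07 ± 0.36) and Itgb5 9.93 to 25.8 against 10.7, 7.86 and 8.47 (0.71 ± 0.21). The calls of Itgav and Itgb5 were lost without mucosa 2 (edgeR adjusted p = 0.123 and 0.0771) or mucosa 3 (0.0984 and 0.0723), and Itgb1 was at 0.00 ± 0.13. Itga4, at 0 to 4.97 CPM against 0.14 to 0.24, did not pass (2.08 ± 1.00, edgeR adjusted p = 0.108). The median moved from 0.06 to 0.24 with total UMIs, and the higher and lower calls from 2574 and 2279 to 3872 and 1516. Of 3373 genes tested in NK or innate lymphoid-like cells, 31.4% passed (17.2% higher and 14.2% lower), and 3 of 4, with Itga4 at 153 to 298 CPM against 65.3, 108 and 79.0 (1.49 ± 0.25), Itgb3 at 23.7 to 104 against 22.4, 0 and 31.6 (1.59 ± 0.44) and Itgb1 at 187 to 428 against 226, 177 and 200 (0.71 ± 0.22). Itgav did not pass, at 0 to 63.8 CPM against 5.27 to 26.1 (0.84 ± 0.53, edgeR adjusted p = 0.236). Without mucosa 1 Itgb3 was lost (edgeR adjusted p = 0.0637), and without mucosa 2 or 3 Itgb1 (0.066 and 0.0732). The median moved from 0.00 to -0.10 and the higher and lower calls from 579 and 479 to 491 and 647. In B cell-like cells 39.9% of 5703 genes passed (18.2% higher and 21.7% lower) and 1 of 3, Itgb3 at 7.01 to 58.3 CPM against 1.94 to 6.53 (2.03 ± 0.55), lost without mucosa 1 (edgeR adjusted p = 0.0525) and too low to test without tumor 5, 6 or 9. Itga4 stood at 162 to 366 CPM against 191 to 511 (-0.52 ± 0.23, edgeR adjusted p = 0.0782), and without mucosa 1 it passed as lower in tumors (-0.82, adjusted p = 0.00297). Itgb1, at 19.6 to 77.7 CPM against 17.8 to 21.3 (0.66 ± 0.36, edgeR adjusted p = 0.142), passed without tumor 10 (0.86, adjusted p = 0.0493).

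Plasma cell-like cells gave 25.7% of 9293 genes (12.0% higher and 13.7% lower) and 3 of 5 of the set: Itgb5 (2.22 ± 0.54), Itgav (1.40 ± 0.47) and Itgb1 (0.55 ± 0.20). With total UMIs the median moved from 0.03 to -0.60, the higher and lower calls from 1113 and 1277 to 281 and 4261, and Itgb1 turned to -0.08 and Itgav to 0.78 (adjusted p = 0.250). The Itgb1 call was also lost with the mouse as a block (edgeR adjusted p = 0.0526), with no filter on low counts (0.0554), at the 10% mitochondrial limit (0.0670) and with DESeq2 (0.0880), and the Itgav call with DESeq2 (0.0676). Itgb3 did not pass (0.37 ± 0.41, edgeR adjusted p = 0.556). Itga4, at -0.34 ± 0.19 (adjusted p = 0.192), passed with total UMIs (-0.99) and with the mouse as a block (edgeR adjusted p = 0.0465). Itgb5 passed under both scalings, and was lost without mucosa 2 (edgeR adjusted p = 0.0544). The Itgav call was lost when any 1 of 6 libraries was left out (mucosa 1 or 3, or tumors 6 to 9; adjusted p 0.0509 to 0.211), and that of Itgb1 for any 1 of 9 (the 3 mucosa libraries and tumors 1, 5 and 7 to 10; adjusted p 0.0544 to 0.192). In goblet-like cells 12.3% of 7901 genes passed (7.66% higher and 4.62% lower) and 0 of the 2 tested, Itgav (0.95 ± 0.36, edgeR adjusted p = 0.0963, and 0.045 without tumor 6) and Itgb1 (0.30 ± 0.18). The clusters of this class also differed between the tissues. A cluster with 408 of its 539 tumor cells held 1443 of its 4373 mucosa cells, and another held 112 tumor and 2601 mucosa cells. Spp1 had 21 UMIs in the goblet-like cells of tumors against 0 in those of mucosa, which is at least 56.9-fold higher against a limit of 3 UMIs over the mucosa group. Their 3.41 CPM lay near the background classes, with a ratio to the C1q genes above the library in 4 of 8 tumors, and the part of free RNA was not tested. The median moved from 0.01 to -0.15, with calls from 605 and 365 to 396 and 905.

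C1q+ macrophage-like cells had too few mucosa cells for the limit of 20, and were compared with the limit lowered to 10 after the data were seen (62 mucosa cells in all). In that comparison 3.16% of 11199 genes passed (2.52% higher and 0.643% lower), and 2 of the 6 genes of the set tested, Itga4 and Spp1. With 1 mucosa UMI, Spp1 passed the filter on low counts through the tumors, so its direction was fixed beforehand. Itga4 was lower in tumors, at 47.1, 64.0 and 76.8 CPM in the lowest, median and highest tumor against 174, 222 and 138 CPM in mucosa 1, 2 and 3, without overlap (-1.06 ± 0.22, edgeR adjusted p = 0.0104). The call was lost without mucosa 2 (adjusted p = 0.0626) or mucosa 3 (adjusted p = 0.0821), and the log2 fold change stayed between -1.12 and -0.90. No tumor was left out in this comparison. Spp1 had 1 UMI in mucosa C1q+ cells, in mucosa 1, which gives a pooled ratio of 604 with a counting interval of 108 to 23869. Itgb1 (0.58 ± 0.20, edgeR adjusted p = 0.153, and 0.0496 with the mouse as a block), Itga9 (0.48 ± 0.42), Itgb5 (0.33 ± 0.22) and Itgav (0.23 ± 0.43) did not pass. With total UMIs the median moved from 0.30 to -0.01, the calls from 282 higher and 72 lower to 92 and 144, and Itgav to -0.05.

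The proteases that cut osteopontin form the list nearest to the second site. RNA of these genes does not measure cleavage of the protein. The thrombin gene F2 had only 158 UMIs in tumors and 37 in mucosa, and Plg 9 and 1. In sums over all cells 7 of 8 tested were higher in tumors and none lower, with a median log2 fold change of 6.10 against 0.03 over all genes, of which 36.3% were higher. Among those of at least 10 CPM in 1 tissue, the largest changes were in the matrix metalloproteinase genes Mmp12 (10.99 ± 0.68), Mmp9 (8.03 ± 0.56) and Mmp7 (5.29 ± 0.54) and in the lysosomal protease gene Ctsd (1.88 ± 0.23). In epithelial sums 5 of 6 were higher, where 33.7% of all genes were, and Mmp7, the matrilysin of epithelial cells, held 413 CPM in tumors against 5.00 CPM in mucosa (6.10 ± 0.56). Mmp7 was also a leading gene of the Paneth-like cluster, which held 770 tumor and 4 mucosa cells. In T cell-like cells 3 of 4 proteases tested were higher (20.6% of all genes), with a median of 4.17, and the part of free RNA in these lists was not tested. Among macrophage states 6 of 7 were higher in C1q+ than in Ly6c+ cells and none lower, and 6 of 7 were higher in Arg1+ than in Ly6c+ cells, against 40.5% and 27.0% of all genes. Mmp12, the macrophage elastase, held 622 ± 290 CPM in C1q+, 762 ± 218 in Arg1+ and 7.35 ± 2.29 in Ly6c+ cells. Between C1q+ and Arg1+ cells, where 41.2% of all genes were higher and 36.3% lower, 4 of 7 proteases were higher, among them Mmp2 (6.10 ± 0.26) and Ctsd (1.56 ± 0.09), and 3 lower, among them Mmp12 (-0.88 ± 0.18).

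Of 4 genes for other receptors of osteopontin tested in all-cell sums 3 were higher, where 36.3% of all genes were, with Cd44, the hyaluronan receptor, at 260 against 41.7 CPM (2.65 ± 0.28) and the fibronectin receptor subunit Itga5 at 15.6 against 1.89 (3.06 ± 0.36). In epithelial sums 2 of 3 were higher (33.7% of all genes), Itgb6 (0.73 ± 0.21) and Cd44 (0.59 ± 0.18), and in T cell-like cells Cd44 was higher (1.25 ± 0.15), the only 1 tested, in a class whose clusters differed between the tissues as given above. Between macrophage states Cd44 was lower in C1q+ than in Arg1+ cells, at 180 against 669 CPM (-2.43 ± 0.06), and lower than in Ly6c+ cells (-2.15 ± 0.06), as was Itga5 (-1.76 ± 0.06 and -1.48 ± 0.05).

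Of 16 genes for other ligands of these integrins tested in all-cell sums, 14 were higher in tumors and none lower, with a median of 5.62 against 0.03 over all genes, of which 36.3% were higher and 33.9% lower. Nov, which the matrices list as Ccn3, was not among the 16. Among those of at least 10 CPM in 1 tissue, the thrombospondin Thbs2 (10.76 ± 0.93), fibronectin (Fn1, 6.71 ± 0.64), Vcam1 (6.20 ± 0.63) and the laminin Lama5 (5.99 ± 0.41) had the largest changes. Thbs2 had 1 UMI in all mucosa cells, so its value is fitted and no bound. In epithelial sums 9 of 12 were higher and 1 lower (33.7% and 30.3% of all genes), with Thbs2 at 23.4 CPM against 0.0041 and Fn1 at 117 against 0.155. In T cell-like cells 5 of 7 were higher (20.6% of all genes), with a median of 5.08, in a class whose clusters differed between the tissues, and the part of free RNA was not tested. Between C1q+ and Arg1+ cells 6 of 9 were higher and 3 lower, against 41.2% and 36.3% of all genes. Vcam1, the counter-receptor of alpha 4 beta 1 and alpha 9 beta 1, held 177 CPM in C1q+ and 3.24 in Arg1+ cells (5.20 ± 0.18), Mfge8, which binds alpha v beta 3 and alpha v beta 5, 215 and 6.89 (4.36 ± 0.26), while Thbs1 held 555 and 3180 (-3.01 ± 0.13) and Fn1 475 and 1213 (-1.88 ± 0.12). Of the 4 remaining glycoproteins of the osteopontin family (Ibsp, Dmp1, Dspp and Mepe), 1 had any UMI and none could be tested.

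Of the 18 integrin alpha subunit genes, the members included, 10 of 17 tested were higher and 5 lower in all-cell sums (36.3% and 33.9% of all genes). The leukocyte subunits Itgam (5.88 ± 0.27) and Itgal (3.34 ± 0.35) had the largest changes among those of at least 10 CPM in 1 tissue. In T cell-like cells 4 of 10 were higher and 5 lower, against 20.6% and 20.4% of all genes and again across different clusters in the 2 tissues. The lower ones included Itgad (-4.01 ± 0.33), Itgax (-2.90 ± 0.22), Itga1 (-2.57 ± 0.24) and Itgae, the alpha E subunit of intraepithelial lymphocytes (-1.98 ± 0.18, 56.8 against 249 CPM). Of the 8 beta subunits 5 were higher in all-cell sums and 5 of 7 in epithelial sums, none lower, against 36.3% and 33.7% of all genes. Among those of at least 10 CPM in 1 tissue, Itgb2 (3.64 ± 0.30) changed most in the former and Itgb4, the hemidesmosome subunit (0.87 ± 0.15), in the latter. Of 22 genes for integrin activation and signaling, 14 were higher and 6 lower in all-cell sums (36.3% and 33.9% of all genes). In epithelial sums 6 of 20 were higher and 6 lower, near the 33.7% and 30.3% of all genes. There the kindlin gene Fermt2 was higher (7.74 ± 0.92) while the leukocyte kindlin Fermt3 (-2.41 ± 0.30) and Apbb1ip (-3.41 ± 0.34) were lower. In C1q+ against Arg1+ cells 10 of 16 were lower and 3 higher (36.3% and 41.2% of all genes), with Rap1b at -1.24 ± 0.06.

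Across the 15 tumor classes the mean profile of Spp1 was most like that of Itga9 among the members (Pearson r = 0.795 of log2(CPM + 1) over classes) and next Itgb5 (0.668), while Itgb5 and Itga9 had 0.781 and Itgb3 and Itga4 0.694. Among 11084 genes, those nearest to Spp1 were Hba-a1 (0.947), Hmox1 (0.938), Tmem104 (0.937), Pla2g7 (0.935) and Gpr84 (0.931). Hba-a1 encodes a hemoglobin chain and Hmox1 the heme-degrading enzyme, and Hmox1 was also a marker of the Arg1+ class. The erythrocyte-like class, named from hemoglobin genes, was not among the 15 classes. An Spp1 UMI was found in 1 of its 366 tumor cells, so the rank of Hba-a1 holds only without that class. For the receptors the nearest genes were Eaf1, Arhgef7 and Ripk3 for Itgav (0.863 to 0.870), Trappc4, Trio and Smg8 for Itgb1 (0.912 to 0.924), S1pr4, Zcchc18 and Ppp1r16b for Itgb3 (0.942 to 0.971), Cytip, Ikzf1 and Arhgap15 for Itga4 (0.972 to 0.984), and Ppbp, Cxcl14 and Gm10134 for Itga9 (0.932 to 0.977). The classes share libraries and depth, so these values describe likeness over 15 points and no more.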

How the data were processed

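Colon tumors and adjacent mucosa were dissociated to single cells and sequenced with 10x Chromium 3' v3.1 chemistry. The authors deposited filtered matrices of raw UMI counts per gene and cell, made with Cell Ranger 6.0.0 on mm10 per the submitters' processing notes; 3' counts of 1 library carry counting error and no transcript length. The 7 genes, gene lists and tests were chosen with earlier results of these data known.

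Cells with at least 500 UMIs, 200 genes and at most 25% mitochondrial UMIs were kept, and doublets were removed by simulated doublet scores at a rate of 0.8% per 1000 cells. Counts were normalised per cell, and 2000 variable genes without the 80 genes of the members and lists gave 30 principal components and Leiden clusters (leidenalg 0.10.2, resolution 1), named from fixed markers. UMIs were summed per library and class and tested with edgeR 4.0.16 (filterByExpr, TMM, quasi-likelihood test, Benjamini-Hochberg over all genes tested). Levels are CPM of total UMIs, and the order of levels used exact sign-flip permutation tests. All 7 genes were to be named in each comparison where they could be tested; of each list, up to 4 called genes with the largest fold change and at least 10 CPM in 1 group; for likeness, the 5 (Spp1) or 3 (integrins) genes with the highest Pearson r over classes. The likeness result for Itgb5 is not reported here. On simulated counts edgeR recovered 31.6% of genes changed 2-fold and 99.0% of those changed 4-fold in all-cell sums, and 80.8% and 100% between C1q+ and Arg1+ cells. False calls were 0.769% of calls in all-cell sums and 7.19% in epithelial sums. The simulation used the same fixed dispersion for every gene and no effect of mouse, so it does not give the power of the tests on the real counts. Tumors and mucosa come from the same 3 animals, so the mouse was the block of a paired alternative; deviations of the mean tumor and the mucosa of a mouse correlated at 0.068 to 0.090 in all-cell sums and 0.126 to 0.261 in epithelial sums. Sequence and positions are from GENCODE vM21 (GRCm38), which matched all 7 symbols. Alternatives were DESeq2 1.42.0, other filters, scalings, clusterings, tumors summed per mouse, the block and leaving out each library (only the mucosa libraries for C1q+ cells against mucosa). Of the alternatives, total UMIs for scaling, single T cell clusters, the limit of 10 cells, leaving out the shallow C1q+ cluster and centring on the mouse were chosen after seeing the data.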

Additional observations from a re-analysis of the deposited data

Results flagged for a closer look

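In 46 sets of 10 tumors (a gene in a class), 3 had a tumor that lay farther from the others than Dixon's 95% limit allows, a limit that chance passes in about 1 of 20 sets. Itga9 in tumor epithelial-like cells was 5.76 CPM in tumor 6, with the next tumor at 2.42 CPM and the lowest at 0.56 CPM. Itgb1 in neutrophil-like cells was 43.0 CPM in tumor 1, with the next at 28.2 CPM. Itga4 in T cell-like cells was 259 CPM in tumor 3, with the next at 182 CPM.

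In 4 of 45 sets the tumors of 1 mouse all lay above the mucosa of that mouse while those of another all lay below theirs, a difference that was not tested. The values are the mean level in the tumors minus that in the own mucosa. Spp1 in T cell-like cells was higher by 3.48 CPM in mouse B and stood at -17.7 CPM in mouse C. Itga4 in B cell-like cells was higher by 92.2 CPM in mouse C and stood at -236 CPM in mice A and B. Itgav in NK or innate lymphoid-like cells was higher by 25 CPM in mice A and B and stood at -8.22 CPM in mouse C. Itgb1 in plasma cell-like cells was higher by 4.50 CPM in mouse B and stood at -4.08 CPM in mouse A.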

How the results depend on the processing

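Of the values for single genes, 467 kept their direction and their side of the threshold under the alternatives that leave no library out and 608 under those that leave out 1, while 16 and 15 turned in sign, 14 and 39 lost a call and 10 and 5 gained one; the causes were not tested. With the 7 genes and all the other gene lists allowed into the clustering, Spp1 in C1q+ minus Arg1+ cells turned to -1.90, its mean within-tumor difference to -1.51 (exact permutation test, p = 0.00195), its UMI share to 31.4% in C1q+ and 47.1% in Arg1+ cells, and Itgb5 in Arg1+ minus Ly6c+ cells to 0.20. The part of the 7 genes alone was not tested. At resolution 2 the within-tumor difference was 0.89 (p = 0.0156, exact permutation test). Itgb1 in C1q+ minus Arg1+ cells turned to 0.023 with no filter on low counts, 0.49 with total UMIs, 0.0067 with doublets kept and 0.039 at resolution 2. In T cell-like cells Spp1 turned to 0.0033 with DESeq2, 0.40 with doublets kept, 6.87 and 0.077 in single clusters. Itgb1 in absorptive epithelial-like cells turned to -0.020 (DESeq2), -0.046 (no filter) and -0.030 (mouse block). With total UMIs Itgb1 and Itgb3 in plasma cell-like cells turned to -0.084 and -0.27 and Itgav in C1q+ cells to -0.052. Calls in B cell-like cells were 3 with no filter and 2 with the replicate block for mouse, 2 in T cell-like cluster 9 alone, 1 (no filter) and 2 (doublets kept) in goblet-like cells, and 1 in plasma cell-like cells with DESeq2. The mouse block changed no other count of calls by over 1.5 times, although in plasma cell-like cells it lost Itgb1 and gained Itga4. The share of C1q+ cells with an Spp1 UMI was 18.9% at 1000 UMIs and 31.9% without thinning. Leaving out 1 library gave 6 to 7 calls in all-cell sums, 3 to 5 in epithelial sums, 0 to 2 in B cell-like, 1 to 2 in C1q+, 2 to 3 in NK or innate lymphoid-like, 4 to 5 in T cell-like, 1 to 3 in absorptive, 0 to 1 in goblet-like and 1 to 3 in plasma cell-like cells, and 5 to 6, 4 and 6 between states (Arg1+ minus Ly6c+, C1q+ minus Arg1+, C1q+ minus Ly6c+). Spp1 in T cell-like cells then ranged from -0.19 to 0.40, Itgb1 in absorptive cells from -0.075 to 0.081 and Itgav in C1q+ cells from -0.029 to 1.78. For C1q+ cells against mucosa only mucosa libraries were left out, and no tumor. The C1q+ comparison with mucosa rests on 62 mucosa cells in all.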

Other observations

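Most Spp1 UMIs of the mucosa libraries were in lymphocytes. A T cell-like cluster led by Gzma, Ccl5 and Cd7, with Cd8a and Cd160 among its leading genes, held 282 of the 426 Spp1 UMIs of the mucosa libraries in 3931 cells, at 46.3, 19.0 and 22.2 CPM in mucosa 1, 2 and 3. The same cluster had 28.9 ± 29.0 CPM over the 8 tumors with enough of its cells. NK or innate lymphoid-like cells had 63 UMIs in mucosa 1 (117 CPM), 0 in mucosa 2 and 3 in mucosa 3, so that level rests on 1 library. The clusters were picked after their values were seen.

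The UMIs of the integrin genes in mucosa were spread over classes as follows, with no test against tumors. Absorptive epithelial-like cells held 47.7 ± 15.4% of the Itgav UMIs of the mucosa (SD over 3 mice) and 46.6 ± 20.8% of those of Itgb5; in tumors C1q+ macrophage-like cells held 56.9% of the Itgb5 UMIs. T cell-like cells held 39.0 ± 6.90% of the Itga4 and 54.7 ± 10.3% of the Itgb3 UMIs of the mucosa.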
